A study of Homo sapiens with 32 samples.

Results

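This comparison rests on 6 H1299 arrays: the 3 labelled as the SMARCA2 knockdown line expressing an ATPase-dead SMARCA2 and the 3 labelled as the same knockdown with a GFP control, chosen by their titles out of 24 H1299 arrays and 32 arrays in all. H1299 is a human non-small cell lung cancer line known to lack SMARCA4. The tested cells carried a stable short hairpin RNA against the part of SMARCA2 that encodes its ATPase domain (S2sh7) and a SMARCA2 cDNA labelled ATPase dead (ATPdead). Their controls carried the same hairpin and GFP. The other H1299 groups used below had the same hairpin with wild-type SMARCA2 (WT) or a bromodomain mutant (BRD), or a hairpin against luciferase (shLuc) with ATPdead, WT, BRD or GFP, each on 3 arrays. All cells were untreated stable lines. The arrays are labelled biological replicates, but no label ties them to separate cultures, and the p-values measure the spread between these samples, which may be technical. The sources used here name neither the mutated residue, nor the promoter of the cDNAs, nor whether the cDNAs resist the hairpin.

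SMARCA2 and SMARCA4 are the alternative motor subunits of the SWI/SNF complexes, which use ATP to slide or evict nucleosomes at promoters and enhancers. A motor subunit without ATPase activity can in general still be built into the complex, where it occupies the place of an active one. The bromodomain at the end of the protein is a separate module that binds acetylated histone tails. Cells that have lost SMARCA4 rely on SMARCA2. The question that the comparison addresses is what a catalytically dead SMARCA2 did to gene expression when the cell's own SMARCA2 was knocked down.

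SMARCA2 RNA was checked first. The SMARCA2 probe set that responded most to the cDNAs read 56.8, 62.5 and 50.9 in the S2sh7 ATPdead arrays and 21.8, 19.9 and 35.5 in the S2sh7 GFP arrays (RMA intensity, linear scale). The groups did not overlap, and the log2 difference was 1.18 (SE 0.161, limma adjusted p = 0.000758 over all probe sets). The same probe set was 1.61 higher with WT and 1.43 higher with BRD. ATPdead against WT differed by -0.43 (SE 0.161, adjusted p = 0.208 over all probe sets), which was not called. WT read 91.2, 65.3 and 73.8, all above the ATPdead arrays, and BRD read 61.3, 68.3 and 71.7, which overlapped them. The levels of the cDNAs were thus shown neither to differ nor to be equal. A second probe set was also higher with ATPdead (log2 difference 0.63, adjusted p = 0.00877). Its means of 31.2 with S2sh7 ATPdead and 20.2 with S2sh7 GFP were both under the filter level (log2 of 5, an intensity of 32). The S2sh7 GFP mean of the first probe set, 25.7, was under that level too. Of the 5 tested SMARCA2 probe sets these 2 were called. The other 3 were not called for any cDNA with S2sh7, with ATPdead over GFP differences of 0.15 (adjusted p = 0.575) for the brightest, which represents the gene in the fit, 0.16 (adjusted p = 0.542) and 0.18 (adjusted p = 0.565). The last was not lower with the hairpin in the GFP lines (log2 difference -0.11, adjusted p = 0.514). The one at 0.16 read 31.99 ± 2.54 in S2sh7 ATPdead cells, 28.8 ± 3.73 in S2sh7 GFP cells, 76.8 ± 6.38 in shLuc ATPdead cells and 70.6 ± 7.01 in shLuc GFP cells (SD, n = 3 each). It was thus low with the hairpin in both lines, with log2 means of 5.00 and 4.84. None of the 7 tested SMARCA4 probe sets was called, with log2 differences between -0.05 and 0.18. The brightest read 113 ± 6.94 in S2sh7 ATPdead cells and 110 ± 3.34 in S2sh7 GFP cells. With the hairpin it was lower in the GFP lines (log2 difference -0.60, limma adjusted p = 1.05e-06), where the others ranged from -0.68 to 0.04. Of 27 other SWI/SNF subunits, none was called between ATPdead and GFP with S2sh7. BCL7A had the most negative value at -0.39 (adjusted p = 0.0661).

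Replicates of the S2sh7 ATPdead group correlated at 0.9976 to 0.9983 and those of the S2sh7 GFP group at 0.9979 to 0.9982 over the tested genes. Arrays of the 2 groups correlated with each other at 0.9973 to 0.9983, a range that overlapped both but reached lower. No arrays were identical. The epithelial keratin KRT18 (5705 to 5819 with ATPdead, 5324 to 5411 with GFP) and the intermediate filament VIM (14198 to 14385 with ATPdead, 14335 to 14468 with GFP) were bright in both. Markers of other cell types were summed over each array. Leukocyte markers summed to 189 to 210 with ATPdead and 207 to 212 with GFP (3 of 9 above the log2 filter of 5 on any of the 6 arrays), and endothelial markers to 166 to 172 with ATPdead and 166 to 180 with GFP (2 of 8). Fibroblast markers summed to 275 to 298 with ATPdead and 275 to 308 with GFP (3 of 10), and alveolar markers to 535 to 570 with ATPdead and 557 to 570 with GFP (7 of 12). The ranges of each list overlapped between the groups. In bulk samples, fewer cells of a type and less RNA per cell cannot be told apart.

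With S2sh7, 118 of 14695 genes (0.803%) were called between ATPdead and GFP at an adjusted p under 0.05 in limma with Benjamini-Hochberg adjustment. Of these, 69 (0.47%) were higher and 49 (0.333%) lower with ATPdead. The changes were small: the median absolute log2 fold change of the called genes was 0.23, from 0.09 to 0.69. Only CRH passed 1.5-fold, and no gene reached 2-fold. The median over all tested genes was 0.01. The arrays of both groups did not overlap for any of the 118 genes. By comparison, 14.4% of all tested genes did not overlap, 9.33% higher and 5.04% lower. WT called 743 genes against the same GFP arrays (5.06%), 493 higher (3.35%) and 250 lower (1.7%). BRD called 791 (5.38%), 488 higher (3.32%) and 303 lower (2.06%). Of the 69 genes higher with ATPdead, 44 were also called higher with WT and 40 with BRD. Of the 49 lower genes, 27 were also called lower with WT and 35 with BRD. These comparisons share the GFP arrays, so their calls are not independent.

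The count rests on the fit and on the scaling. Without S2sh7 GFP array 1 it was 32, without S2sh7 GFP array 2 it was 161, and from the 6 arrays alone, with no spread borrowed from the other H1299 groups, only SPP1 and CRH were called. With each array centred on its median the split was 28 higher and 154 lower, so that 15.4% of calls were higher in place of 58.5%. Quantile normalization gave 44.1%. The plot of fold change against p shows all tested genes.

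**Figure D1:**
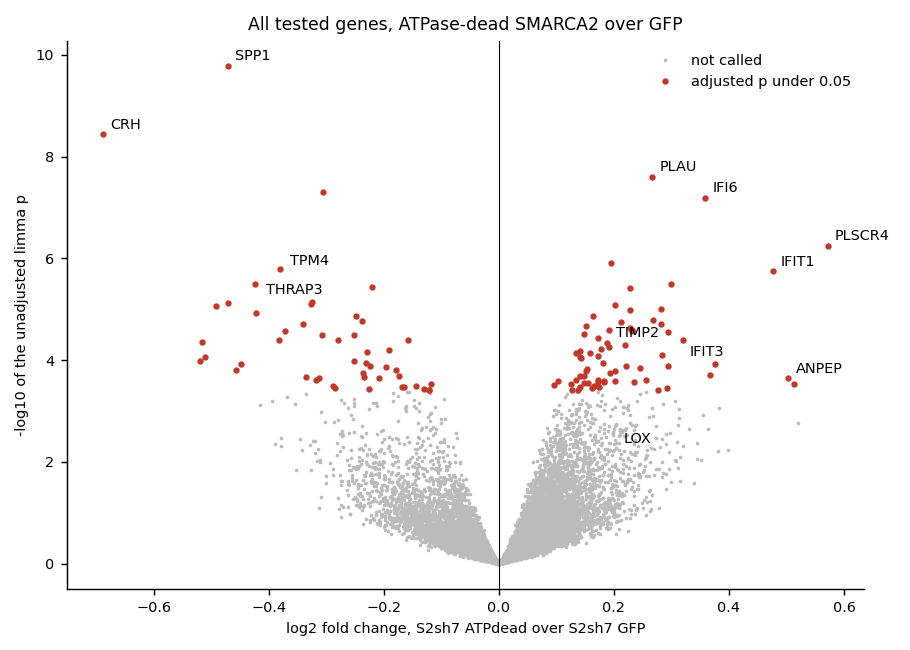
Every tested gene by its log2 fold change in S2sh7 ATPdead over S2sh7 GFP (horizontal axis) and its unadjusted limma p as -log10 (vertical axis), with the 118 called genes in red. SPP1 and CRH lie apart at the upper left, with IFI6, PLAU, PLSCR4 and IFIT1 at the upper right, while LOX lies among the genes not called.

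SPP1 encodes osteopontin, a secreted phosphoprotein of the extracellular matrix that cells bind through integrins and CD44. On chromosome 4, it read 1967, 1915 and 1936 with S2sh7 ATPdead and 2718, 2633 and 2717 with S2sh7 GFP. The groups were far apart relative to their spread, and ATPdead arrays averaged 72.1% of the GFP level. The log2 fold change was -0.47 (SE 0.038, limma adjusted p = 2.39e-06), with a 95% interval of -0.55 to -0.39. SPP1 read 1787, 1832 and 1737 with S2sh7 WT and 1776, 1808 and 1791 with S2sh7 BRD, just below every ATPdead array. Against the GFP arrays that all 3 cDNAs share, the fold changes were -0.47 for ATPdead, -0.59 for WT and -0.59 for BRD. ATPdead over WT was 0.12 (interval 0.04 to 0.20, adjusted p = 0.102) and ATPdead over BRD 0.11 (interval 0.04 to 0.19, adjusted p = 0.126), so no difference between the cDNAs passed the test.

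With the luciferase hairpin, SPP1 read 261, 261 and 264 with ATPdead and 259, 260 and 261 with GFP. The difference there was 0.01 (adjusted p = 0.936), and the test of the 2 differences against each other gave -0.48 (SE 0.054, adjusted p = 0.000442). The SPP1 level of the S2sh7 ATPdead cells remained far above that of either luciferase line. Of 9 genes for osteopontin receptors, 1 was called: ITGB5, the integrin beta 5 subunit, was 0.15 higher (adjusted p = 0.0123). CD44, the hyaluronan and osteopontin receptor, had 0.06 (adjusted p = 0.531).

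CRH, the stress neuropeptide corticotropin-releasing hormone, showed the largest change of any called gene. On chromosome 8, it read 367, 338 and 332 with S2sh7 ATPdead and 540, 567 and 563 with S2sh7 GFP, with no overlap. ATPdead arrays averaged 62.1% of GFP (log2 fold change -0.69, SE 0.067, limma adjusted p = 2.64e-05). A second CRH probe set gave -0.66 and was called as well. CRH was lower still with WT, at 218, 217 and 223, and with BRD, at 245, 266 and 248. Here the cDNAs did differ: CRH was 0.66 log2 higher with ATPdead than with WT (adjusted p = 8.42e-06) and 0.45 higher than with BRD (adjusted p = 0.000537). With shLuc, CRH read 58.0, 51.2 and 57.5 with ATPdead and 67.7, 64.6 and 76.1 with GFP, a difference of -0.32 that did not pass (adjusted p = 0.0565). The test between the hairpins gave -0.37 (adjusted p = 0.172), so the CRH difference was not shown to depend on the knockdown.

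LOX, which oxidises lysines so that collagen and elastin can cross-link, read 611, 612 and 589 with S2sh7 ATPdead and 522, 520 and 532 with S2sh7 GFP. All 3 ATPdead arrays were above the GFP arrays, but the difference of 0.20 log2 (SE 0.056) was not called (limma adjusted p = 0.107, interval 0.09 to 0.32). WT read 374, 335 and 367 and BRD 372, 357 and 365, below every GFP array. Against GFP, LOX changed by -0.55 with WT and -0.53 with BRD, both called. LOX was 0.75 higher with ATPdead than with WT (SE 0.056, adjusted p = 1.20e-07) and 0.73 higher than with BRD (adjusted p = 2.55e-07). The other LOX probe sets gave 0.23 and 0.24 for ATPdead over GFP, neither called. With shLuc, LOX was 0.18 higher with ATPdead (adjusted p = 0.200), and the test between hairpins gave 0.02 (adjusted p = 0.939). Of 14 lysyl oxidases and collagen modifiers, LOXL2, another lysyl oxidase, was called higher at 0.23 (adjusted p = 0.0117) and the other 13 were not called. The median of the 14 was 0.01.

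**Figure D2:**
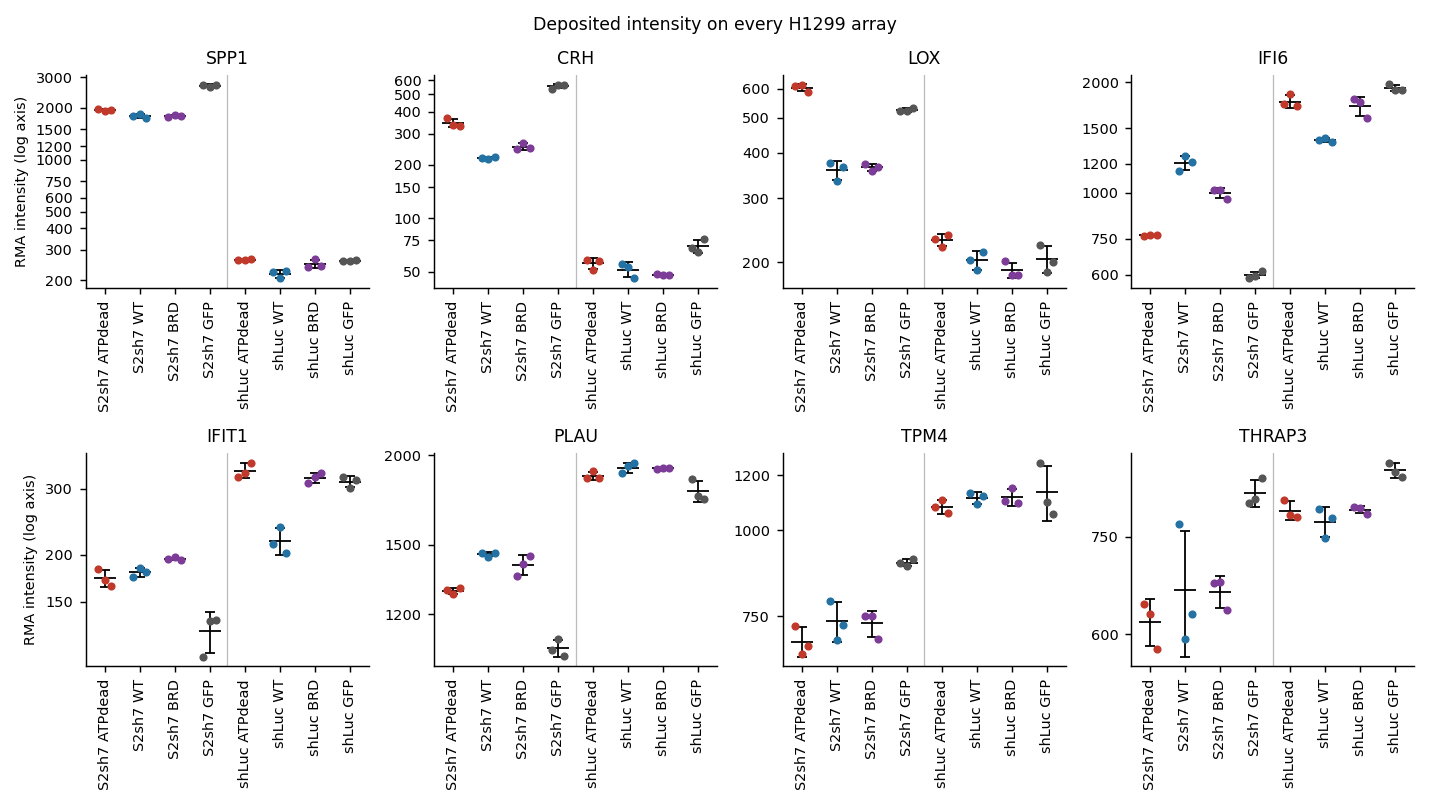
Deposited intensity (vertical log axis) of 8 genes on all 24 H1299 arrays by group, S2sh7 groups left of the grey line and shLuc groups right of it; points are arrays, the black bar is the mean and the whiskers 1 SD (n = 3). SPP1 and CRH are lower with S2sh7 ATPdead than with S2sh7 GFP, IFI6, IFIT1 and PLAU are higher, and THRAP3 has 1 S2sh7 WT array above the other two.

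Interferon-stimulated genes encode proteins that sense or block viral RNA. They are switched on when interferon or intracellular RNA sensing activates STAT and IRF factors, which bind the interferon-stimulated response element (ISRE) in their promoters. Of 41 tested members of a list of such genes, 4 were called higher with S2sh7 ATPdead, none lower and 37 not called, against 0.47% of all tested genes called higher. The median of the 41 was 0.10, against 0.01 over all tested genes, and it was 0.10 after quantile normalization and 0.06 after centring each array. The 4 called genes were IFIT1, IFI6, IFIT3 and SAMD9. Because they moved together, the 250 bases before each gene's start are shown from RefSeq (GRCh38.p14), read in the direction of the gene. Capitals mark every match, on either strand, to the ISRE core, which is GAAA, any 2 bases and GAAA again.
IFI6, minus strand, chr1:27672193-27672442: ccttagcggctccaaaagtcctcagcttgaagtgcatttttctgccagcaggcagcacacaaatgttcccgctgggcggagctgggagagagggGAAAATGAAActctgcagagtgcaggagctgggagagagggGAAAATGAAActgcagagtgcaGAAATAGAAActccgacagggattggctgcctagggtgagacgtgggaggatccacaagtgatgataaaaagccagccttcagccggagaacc
IFIT1, plus strand, chr10:89392373-89392622: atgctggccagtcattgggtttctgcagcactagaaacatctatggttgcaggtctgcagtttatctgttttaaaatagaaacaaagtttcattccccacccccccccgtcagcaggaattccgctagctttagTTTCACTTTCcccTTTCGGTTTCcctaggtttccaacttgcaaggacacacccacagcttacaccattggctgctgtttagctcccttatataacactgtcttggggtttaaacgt
IFIT3, plus strand, chr10:89327747-89327996 (the first of 2 starts in the table): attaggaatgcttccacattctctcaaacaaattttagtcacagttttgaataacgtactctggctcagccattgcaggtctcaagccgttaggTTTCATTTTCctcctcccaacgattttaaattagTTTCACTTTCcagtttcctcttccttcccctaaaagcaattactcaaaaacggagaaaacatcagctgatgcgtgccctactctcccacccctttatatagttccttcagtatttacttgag
SAMD9, minus strand, chr7:93117980-93118229: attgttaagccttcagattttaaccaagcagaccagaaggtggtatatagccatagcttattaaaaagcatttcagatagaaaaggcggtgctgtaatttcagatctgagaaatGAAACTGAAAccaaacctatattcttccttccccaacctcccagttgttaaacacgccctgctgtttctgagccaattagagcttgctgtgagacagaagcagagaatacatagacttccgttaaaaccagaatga

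The core occurred 3 times before IFI6, 2 times each before IFIT1 and IFIT3, and 1 time before SAMD9. It stood in 3.02% of all 35116 promoters of the table. Among tested genes with a promoter in the table, 372 of 11729 held it (3.17%), and among the listed interferon genes 21 of 33 did (63.6%). A match is a description of the letters, and no binding was measured here.

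IFI6, an interferon-induced membrane protein, read 766, 767 and 770 with S2sh7 ATPdead and 587, 597 and 613 with S2sh7 GFP. The groups did not overlap, and the rise was 0.36 log2 (SE 0.042, limma adjusted p = 0.000187), or 1.28-fold. WT gave 1150, 1258 and 1213 and BRD 1018, 1018 and 964, well above every ATPdead array. IFI6 was therefore 0.65 log2 lower with ATPdead than with WT (adjusted p = 1.23e-08) and 0.38 lower than with BRD (adjusted p = 2.29e-05), both tested directly. With shLuc the difference between ATPdead and GFP was -0.12 (adjusted p = 0.224), and the test between hairpins gave 0.48 (adjusted p = 0.000992).

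IFIT1, which binds viral RNA that lacks the host's cap methylation, read 183, 171 and 165 with S2sh7 ATPdead and 107, 134 and 134 with S2sh7 GFP. It was 0.48 log2 higher (SE 0.070, limma adjusted p = 0.00288), with the groups apart and S2sh7 GFP array 1 the lowest of the 6. The change with WT against the same GFP arrays was 0.53 and with BRD 0.65. ATPdead over WT was -0.06 (adjusted p = 0.758). Its partner IFIT3 read 202, 204 and 187 with S2sh7 ATPdead and 143, 166 and 166 with S2sh7 GFP (log2 fold change 0.32, adjusted p = 0.0138). SAMD9, an antiviral factor, read 113, 108 and 98.5 with S2sh7 ATPdead and 77.6, 93.0 and 91.4 with S2sh7 GFP (0.29, adjusted p = 0.0463). S2sh7 GFP array 1 was again the lowest for both. Without that array the 2 genes were not called, IFIT1 and IFI6 were, and both genes were also lost when S2sh7 ATPdead array 1 or 2 was left out. Unlike IFI6, none of the other 3 was called in the limma test between hairpins. It gave 0.38 for IFIT1 (adjusted p = 0.172), 0.29 for IFIT3 (adjusted p = 0.231) and 0.18 for SAMD9 (adjusted p = 0.493).

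The other 37 members did not pass, though not all of their values were smaller than those of the called genes. IFI44, an interferon-induced cytoplasmic protein, had 0.35 (adjusted p = 0.0839), IFIT2, a further IFIT member, 0.25 (adjusted p = 0.0536), and ISG15, a ubiquitin-like modifier, 0.22 (adjusted p = 0.0801). OAS1, an enzyme that activates RNase L on sensing RNA, was under the filter level (log2 of 5, an intensity of 32) in both S2sh7 groups and was not called (adjusted p = 0.734). At an unadjusted p under 0.05, 18 of the 41 members were higher and none lower, where 8.32% of all tested genes were higher and 4.04% lower. Of the 41 values 35 were positive, as were 58.1% of those of all tested genes. Against the same GFP arrays WT called 24 members higher (median 0.23) and BRD 25 (median 0.24), none lower, where 3.35% and 3.32% of all tested genes were called higher. Tested directly, 11 of the 41 were lower with ATPdead than with WT and none higher (median -0.16), where 1.41% of all tested genes were called lower. An example was IFI27 (-0.93, adjusted p = 4.50e-05). OAS1 was also called lower (adjusted p = 0.000380), but its means of 11.0 with S2sh7 ATPdead and 19.8 with S2sh7 WT were both under the filter level, so its difference is not given as a size. IFI27 read 43.6, 42.5 and 43.1 with S2sh7 ATPdead against 87.1, 86.6 and 72.7 with S2sh7 WT.

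Among 15 tested matrix proteases and plasminogen genes, 2 were called higher and none lower (median 0.05). PLAU, the urokinase that turns plasminogen into plasmin, read 1298, 1280 and 1305 with S2sh7 ATPdead and 1071, 1108 and 1050 with S2sh7 GFP. It was 0.27 log2 higher (SE 0.029, limma adjusted p = 0.000121), with narrow groups that did not overlap, and a second probe set gave 0.26 and was called. With WT it read 1458, 1443 and 1462, and ATPdead over WT was -0.17 (adjusted p = 0.00231). TIMP2, an inhibitor of metalloproteinases, read 1138, 1146 and 1083 with S2sh7 ATPdead and 957, 958 and 1034 with S2sh7 GFP (0.19, adjusted p = 0.0117). It was not called without S2sh7 ATPdead array 2 or without S2sh7 GFP array 1 (adjusted p up to 0.0778). TIMP2 was 0.20 lower with ATPdead than with WT (adjusted p = 0.00231) and 0.27 lower than with BRD (adjusted p = 0.000115).

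The other large rises were in genes of different functions, and several were dim. PLSCR4, a member of the phospholipid scramblase family, had the largest rise. It read 46.1, 45.7 and 46.9 with S2sh7 ATPdead and 31.96, 29.0 and 32.6 with S2sh7 GFP (log2 fold change 0.57, SE 0.077, limma adjusted p = 0.00139). NEFM, a neurofilament subunit, had 0.51 (adjusted p = 0.0440), ANPEP, the surface aminopeptidase CD13, 0.50 (adjusted p = 0.0392), CLIP2, a microtubule-binding protein, 0.38 (adjusted p = 0.0269), and the antisense transcript DLGAP1-AS6 0.37 (adjusted p = 0.0369). PLSCR4, NEFM, ANPEP and CLIP2 were dim with S2sh7 GFP, with means of 31.2, 18.5, 33.4 and 23.5, near or under the filter level of 32. NEFM and CLIP2 were under that level with S2sh7 ATPdead as well, with means of 26.5 and 30.4. Their ranks among the rises therefore rest on dim probe sets. The calls of NEFM, ANPEP, CLIP2 and DLGAP1-AS6 were each lost without at least 4 of the 6 arrays taken singly. Against the same GFP arrays, WT and BRD gave called rises of 0.43 and 0.52 for PLSCR4 and 0.64 and 0.44 for NEFM. They also gave called rises of 0.53 and 0.58 for ANPEP and 0.41 and 0.27 for CLIP2. DLGAP1-AS6 had 0.22 with WT and 0.11 with BRD, neither called. ATPdead over WT was not called for any of these genes.

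Of the 2 remaining large rises, COXFA4L3 differed between the cDNAs. COXFA4L3, a subunit that can take a place in mitochondrial complex IV, read 404, 391 and 374 with S2sh7 ATPdead and 305, 316 and 330 with S2sh7 GFP (0.30, SE 0.046, limma adjusted p = 0.00419). It read 320.2, 312 and 336 with S2sh7 WT and 337, 310.5 and 330 with S2sh7 BRD, close to GFP. Tested directly it was 0.27 higher with ATPdead than with WT (adjusted p = 0.00174) and 0.26 higher than with BRD (adjusted p = 0.00288). EXOC6B, a subunit of the exocyst that tethers secretory vesicles, read 56.3, 56.1 and 59.8 with S2sh7 ATPdead and 47.6, 45.0 and 47.9 with S2sh7 GFP (0.29, adjusted p = 0.0118). Its ATPdead over WT difference was 0.14 (adjusted p = 0.181).

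**Figure D3:**
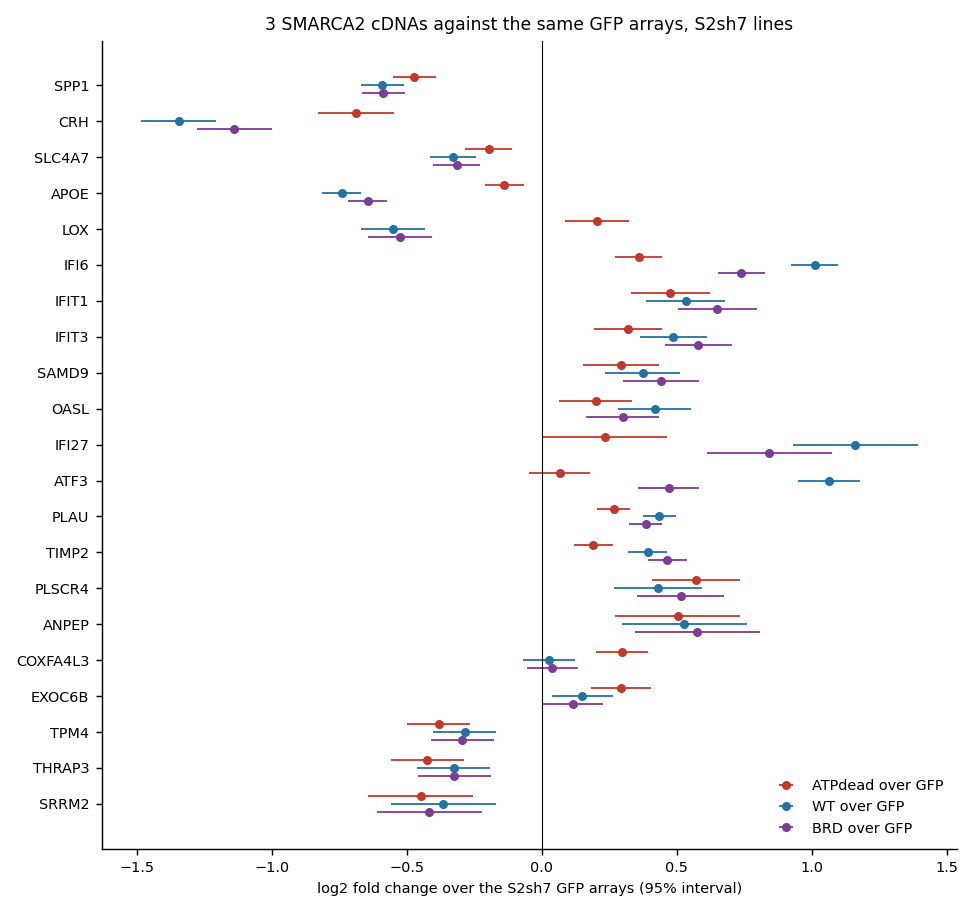
Log2 fold change over the 3 S2sh7 GFP arrays (horizontal axis, with 95% intervals from limma) of 21 genes for ATPdead, WT and BRD, which share those GFP arrays. LOX lies at 0.20 for ATPdead and near -0.5 for the other cDNAs, IFI6, IFI27 and ATF3 lie nearer 0 for ATPdead than for WT, and COXFA4L3 lies at 0.30 for ATPdead and near 0 for the others.

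The genes called lower, apart from SPP1 and CRH, included 8 of the 10 largest falls. They were CCDC18 (-0.52), CDC42BPA, a kinase that acts with CDC42 on actomyosin (-0.52), the vesicle GTPase RAB12 (-0.51), the bromodomain protein BRWD3 (-0.49), CCDC186, a coiled-coil protein of vesicle sorting (-0.47), CCDC88A, the actin-binding protein girdin (-0.46), the splicing factor scaffold SRRM2 (-0.45) and the RNA-processing factor THRAP3 (-0.42). THRAP3 read 643, 629 and 581 with S2sh7 ATPdead and 810, 816 and 858 with S2sh7 GFP (SE 0.065, limma adjusted p = 0.00419). SRRM2 read 368, 341 and 316 with S2sh7 ATPdead and 473, 475 and 449 with S2sh7 GFP (SE 0.093, adjusted p = 0.0269). In each the ATPdead arrays lay wholly below the GFP arrays, which the choice of the largest falls required.

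The falls of these 8 genes rest on 1 probe set each. None of their 19 other tested probe sets was called, 13 lay within 0.1 log2 of 0, and the median was -0.01, from -0.25 to 0.08. In S2sh7 WT, array 1 read above arrays 2 and 3 and above every S2sh7 ATPdead array for all 8 genes, as with THRAP3 at 772, 594 and 628. The fold changes against the same GFP arrays were -0.37 to -0.27 with WT and -0.55 to -0.32 with BRD. With shLuc, ATPdead over GFP gave -0.19 to -0.08 and none was called. The sources used here do not say which part of a transcript each probe set reads. When the probe sets of each gene were averaged, none of the 8 was called.

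Over all called genes, the 49 lower ones had 97 other tested probe sets in 42 genes, of which 11 were called and 62 had the same sign (median -0.03, against -0.24 for the probe sets used). The 69 higher ones had 60 others in 36 genes, of which 10 were called and 47 had the same sign (median 0.08, against 0.17). None was called in the opposite direction. TPM4, a tropomyosin that stabilises actin filaments, was called by several probe sets. It read 726, 662 and 678 with S2sh7 ATPdead and 894, 886 and 908 with S2sh7 GFP (log2 fold change -0.38, SE 0.056, limma adjusted p = 0.00288). Its 2 other bright probe sets gave -0.52 and -0.65, both called, and a dim one -0.07. LIMA1, an actin-bundling protein of the same list, was 0.17 higher (adjusted p = 0.0461), while its other probe sets gave -0.13 and 0.03 and were not called. Of 19 tested actin and contractile genes, these 2 were called, 1 in each direction.

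**Figure D4:**
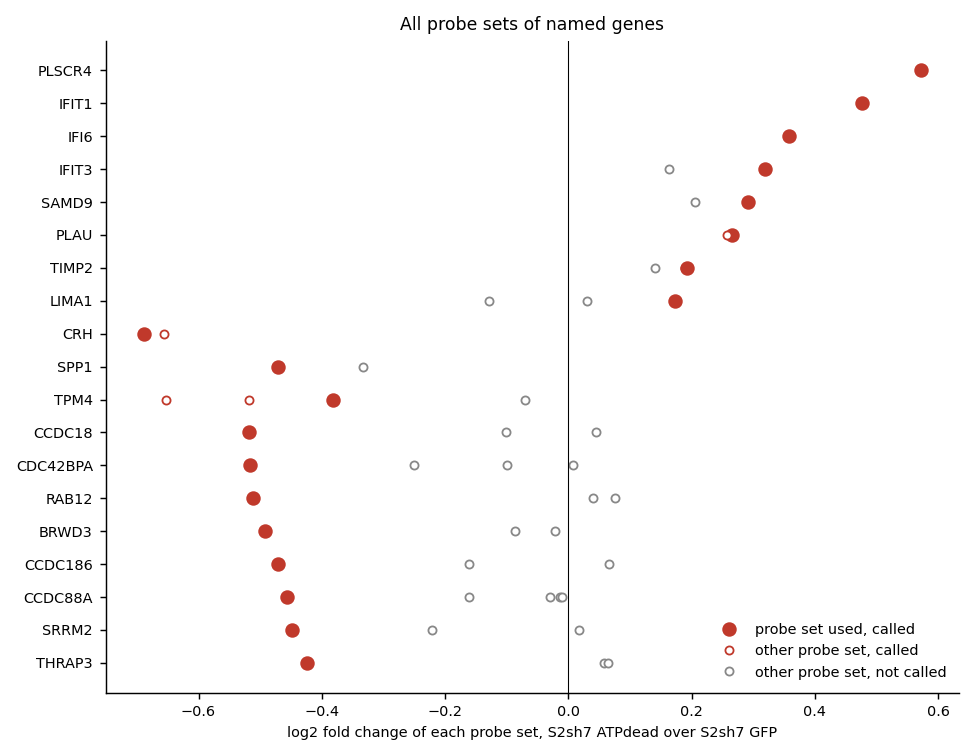
Log2 fold change of every probe set of 19 named genes in S2sh7 ATPdead over S2sh7 GFP (horizontal axis), large filled points for the probe set used, small open points for the others and red for an adjusted p under 0.05 over all probe sets. The probe sets of CRH, PLAU and 3 of the 4 of TPM4 were called together, while the other probe sets of CCDC18 to THRAP3 lie between -0.25 and 0.08.

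The difference between ATPdead and WT under the same hairpin was tested directly and called 444 genes (3.02%), 237 higher (1.61%) and 207 lower (1.41%) with ATPdead. Whether the cDNA level has a part in these differences was not tested. ATPdead over BRD called 425 (2.89%), 248 higher (1.69%) and 177 lower (1.2%). The 5 largest rises over WT were LOX, CRH, APOE, a lipid carrier (0.60, adjusted p = 3.04e-09), the choline transporter-like gene SLC44A3 (adjusted p = 0.0164) and the creatine synthesis enzyme GATM (0.49, adjusted p = 0.0313). SLC44A3 was under the filter level of 32 on all 24 H1299 arrays, with means of 24.9 with S2sh7 ATPdead and 17.3 with S2sh7 WT. GATM averaged 39.8 with S2sh7 ATPdead and 28.2 with S2sh7 WT, on both sides of that level. APOE read 516, 502 and 529 with S2sh7 ATPdead, 346, 336 and 336 with S2sh7 WT and 568, 573 and 563 with S2sh7 GFP. The ATPdead arrays lay below the GFP arrays by 0.14 log2, which was not called (adjusted p = 0.0687).

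The 5 largest falls relative to WT were the stress-induced transcription factor ATF3, IFI27, OAS1, DDIT4, an inhibitor of mTORC1 signalling, and the neuropeptide SPX. ATF3 read 73.7, 75.3 and 80.3 with S2sh7 ATPdead, 152, 148 and 158 with S2sh7 WT and 67.8, 76.5 and 74.9 with S2sh7 GFP. It overlapped GFP (0.07, interval -0.05 to 0.18, limma adjusted p = 0.667) and was 1.00 log2 below WT (SE 0.054, adjusted p = 2.69e-09). DDIT4 was 0.73 below WT (adjusted p = 4.77e-05) and -0.24 against GFP (adjusted p = 0.234). SPX was called lower than with WT (adjusted p = 0.00141) and not called against GFP (adjusted p = 0.284), but its means of 13.1 with S2sh7 ATPdead, 20.9 with S2sh7 WT and 10.7 with S2sh7 GFP were all under the filter level of 32. The ranks of OAS1 and SPX among the falls therefore rest on dim probe sets. Of 36 integrated stress response genes, a programme that raises amino acid synthesis and transport when translation is slowed, none was called against GFP (median -0.01). Against WT, 9 of the 36 were lower with ATPdead and none higher, where 1.41% of all tested genes were lower and 1.61% higher.

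With the luciferase hairpin, ATPdead over GFP called 18 genes (0.122%), 5 higher (0.034%) and 13 lower (0.0885%), and none of them was among the 118. No array is shared between these comparisons. Of the 69 higher genes, 46 had a positive value with shLuc (median 0.04), and of the 49 lower genes, 42 had a negative value (median -0.07). Over all tested genes, 51.5% had the same sign in both. A test of the difference between hairpins called 9 genes (0.0612%), 7 with a positive difference (0.0476%) and 2 with a negative one (0.0136%). Among the 118 were 3 of them: SPP1, IFI6 and the bicarbonate transporter SLC4A7. SLC4A7 read 725, 669 and 648 with S2sh7 ATPdead and 774, 786 and 777 with S2sh7 GFP (-0.20, limma adjusted p = 0.0294). With shLuc it read 489, 497 and 522 with ATPdead and 460, 448 and 475 with GFP (0.12, adjusted p = 0.221), and the difference between hairpins was -0.32 (adjusted p = 0.0486).

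The knockdown can be read without the 6 arrays in the BRD lines, but these also express a SMARCA2 cDNA. The values are therefore those of the knockdown in the presence of that cDNA. S2sh7 over shLuc there called 3486 genes (23.7%), 1626 higher (11.1%) and 1860 lower (12.7%). Both comparisons take each gene's spread from the same fit, so a gene with little spread is called more readily in both. The median residual SD was 0.044 for the 69 higher genes and 0.064 for the 49 lower ones, against 0.070 over all tested genes. Of the 69 genes higher with ATPdead, 40 (58.0%) were lower with the knockdown in the BRD lines, 8 were higher and 21 not called. These 40 were 2.15% of the genes lower with the knockdown in the BRD lines. Of the 49 genes lower with ATPdead, 33 (67.3%) were also lower with the knockdown in the BRD lines, 7 were higher and 9 not called. SPP1 (2.85 log2 for the knockdown with BRD) and CRH (2.40) were among the 7, and THRAP3 (-0.27) among the 33. In the GFP lines the knockdown called 4359 genes (29.7%), 13.6% of all tested genes higher and 16.1% lower, but that comparison shares the S2sh7 GFP arrays. Of the 69 genes higher with ATPdead, 47 were lower with the knockdown in the GFP lines and 2 higher. Of the 49 genes lower with ATPdead, 8 were lower there and 10 higher. The 8 largest falls apart from SPP1 and CRH, THRAP3 among them, had -0.23 to 0.11 there, and none was called. The knockdown values there were 3.37 for SPP1, 3.01 for CRH, 1.37 for LOX, -1.69 for IFI6, -1.33 for IFIT1 and -0.73 for PLAU. In the plot against the knockdown effect in the BRD lines the higher genes lie mostly left of 0.

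**Figure D5:**
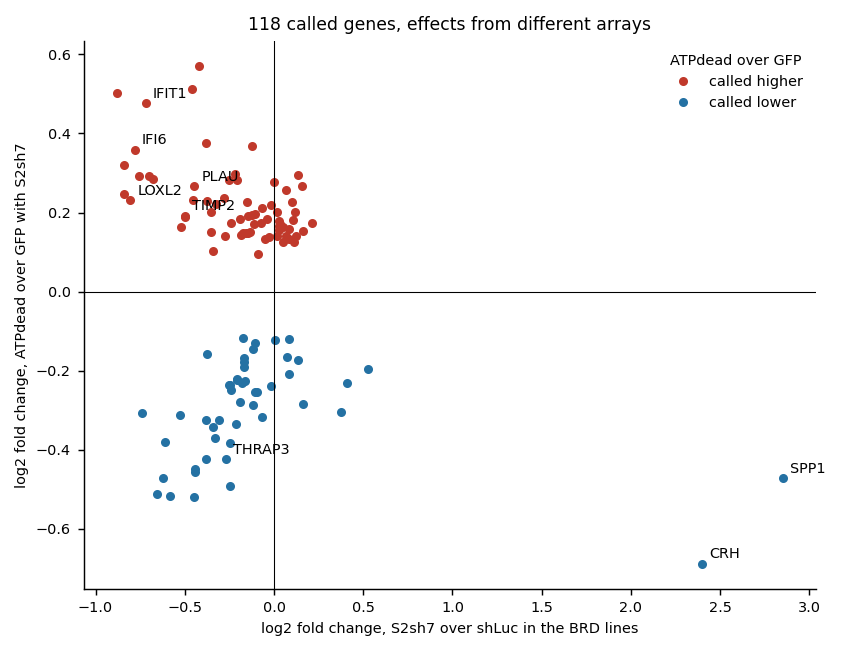
The 118 called genes by their log2 fold change in S2sh7 over shLuc in the BRD lines (horizontal axis) and in ATPdead over GFP with S2sh7 (vertical axis), 2 effects that share no array. SPP1 and CRH stand alone at the lower right, IFI6, IFIT1, LOXL2, PLAU and TIMP2 lie at the upper left, and THRAP3 lies at the lower left among most of the genes called lower.

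The remaining lists held few called members with S2sh7. KRT18 was called higher (0.10, limma adjusted p = 0.0412) among 24 epithelial genes, the WNT antagonist DKK3 (0.16, adjusted p = 0.00884) among 14 WNT genes, and the transcription factor ETV5 (0.16, adjusted p = 0.0430) among 19 MAP kinase feedback genes. TOP2A, the mitotic topoisomerase, was lower (-0.25, adjusted p = 0.0126) among 35 mitosis genes, the chaperone HSP90B1 (-0.13, adjusted p = 0.0486) among 19 chaperone genes, and the glycolytic enzyme ALDOA (-0.12, adjusted p = 0.0491) among 29 hypoxia and glycolysis genes. That last list had a median of -0.06, and 10 of its 29 members were lower at an unadjusted p under 0.05 and none higher, against 4.04% and 8.32% of all tested genes. Of 36 extracellular matrix genes, SPP1 alone was called, and of 14 neuropeptide and neuroendocrine genes CRH alone. No member was called of the lists for immediate early, YAP and TEAD target, mesenchymal, TGF-beta and BMP, inflammatory, NF-kB feedback, cholesterol, lipid export, NRF2, p53, DNA replication and lineage factor genes, nor of the 4 lists of other cell types.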

How the data were processed

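RNA was hybridised to Affymetrix HG-U133 Plus 2.0 arrays, whose probes lie near the 3' ends of transcripts. The deposited values are RMA intensity on a linear scale (RMA and limma are named, without versions, per the submitters' processing notes). They had been planned for as log2 values, so log2 was taken first, with no pseudocount. The platform annotation gives 1 symbol for 41097 of 54675 probe sets, several for 1801 and none for 11777, and the first kind alone was used. Each gene was read from its probe set of highest mean over the 32 arrays, and kept with log2 over 5 on at least 3 arrays, which left 14695 of 19775 genes. limma 3.58.1 (R 4.3.3) fitted 1 mean per group over the 24 H1299 arrays, with default eBayes and Benjamini-Hochberg adjustment over all tested genes. A gene was called at an adjusted p under 0.05. The fit has 16 residual degrees of freedom, and the number of arrays limits the precision. The H1299 arrays carry 1 batch label. The step was tested on simulated data with independent noise for each gene and array, which does not cover array scaling or correlated genes. The genes named are SMARCA2, SMARCA4, the markers SPP1, CRH and LOX, the 10 largest called rises and falls, called members of lists with at least 2 called, and the 5 largest each way against WT and between hairpins. List members named beyond this rule, such as ITGB5, LOXL2, IFI44 and TOP2A, were named after their values were seen. Members and lists were chosen with earlier results of these data known. Alternatives covered probe set choice, filter, scaling, variance model, samples, array weights, threshold and a replicate block. Figures were drawn with matplotlib 3.10.9.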

Additional observations from a re-analysis of the deposited data

Results flagged for a closer look

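The difference between ATPdead and GFP differed between the hairpins for 9 genes, by the interaction term in limma over all tested genes. Each value below is the S2sh7 difference minus the shLuc difference on the log2 scale, with both differences beside it. SPP1, the secreted matrix protein osteopontin, gave -0.48 (-0.47 with S2sh7, 0.01 with shLuc, adjusted p = 0.000442). IFI6, an interferon-induced membrane protein, gave 0.48 (0.36 with S2sh7, -0.12 with shLuc, adjusted p = 0.000992). SLC4A7, a bicarbonate transporter, gave -0.32 (-0.20 with S2sh7, 0.12 with shLuc, adjusted p = 0.0486). These 3 genes were also called between S2sh7 ATPdead and S2sh7 GFP.

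The other 6 were not called with S2sh7. EGR1, an immediate early transcription factor, gave 0.37 (0.13 with S2sh7, -0.24 with shLuc, adjusted p = 0.00183), and its fall with shLuc was itself called. OASL, an interferon-induced relative of the OAS enzymes, gave 0.52 (0.20 with S2sh7, -0.32 with shLuc, adjusted p = 0.0471). ZNF155, a zinc finger gene, gave 0.47 (0.20 with S2sh7, -0.27 with shLuc, adjusted p = 0.0486). SALL3, a developmental transcription factor, gave 0.32 (0.11 with S2sh7, -0.21 with shLuc, adjusted p = 0.0471), and its fall with shLuc was also called. CLASRP, a protein linked to splicing, gave 0.27 (0.09 with S2sh7, -0.18 with shLuc, adjusted p = 0.00255), and its fall with shLuc was called as well. FNBP4, which binds formin, gave 0.26 (0.13 with S2sh7, -0.13 with shLuc, adjusted p = 0.0486). CLASRP and FNBP4 fall outside the naming rule and are named after their values were seen. No group holds 4 or more arrays, so single arrays were not tested as outliers.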

How the results depend on the processing

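Of 39 named genes, 37 kept the sign of their S2sh7 ATPdead over GFP value under every alternative run. The exceptions, both dim and not called, were OAS1 (-0.13, but 0.04 with the mean of probe sets and 0.04 without S2sh7 ATPdead array 1) and SPX (0.28, but -0.02 with the mean of probe sets). The balance of calls did turn, to more lower than higher, with centring, quantile normalization and each probe set on its own. Of the alternatives for single named genes, 610 kept their side of the threshold, 159 lost the call and 6 gained it. SPP1, CRH, PLSCR4, IFI6, IFIT1, COXFA4L3, BRWD3, CCDC186, THRAP3, PLAU and TPM4 kept the call without any 1 of the 6 arrays. LOX was called with a trended and robust variance (adjusted p = 0.0173). Of the 118 calls, 96 remained after quantile normalization, 77 after centring each array, 48 with the mean of all probe sets and 2 from the 6 arrays alone. Centring moved the median of all genes to -0.03. The causes were not tested.

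Counts for S2sh7 ATPdead over GFP are given as all, higher and lower. Leaving out 1 array gave 32 to 161, 12 to 118 and 14 to 43. The lowest all-gene and higher counts were without S2sh7 GFP array 1, and the lowest lower count without S2sh7 GFP array 3. Fewer arrays also raise the error. Each probe set on its own gave 416, 130 and 286, no filter 61, 32 and 29, trended and robust variance 306, 190 and 116, and array weights 65, 37 and 28. Centring gave 182, 28 and 154, the 6 arrays alone 2, 0 and 2, an adjusted p under 0.01 25, 12 and 13, and at least 1.5-fold 1, 0 and 1. A filter of log2 over 6 gave 178 and 105 higher, and quantile normalization 60 higher and 76 lower. Without S2sh7 WT array 1, chosen after seeing the data, there were 130.

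For shLuc ATPdead over GFP, leaving out 1 array gave 0 to 10, no filter 5, a filter of log2 over 6 47, probe set choice over the H1299 arrays 44, trended and robust variance 196, array weights 239, its own groups alone 0, an adjusted p under 0.01 4 and at least 1.5-fold 1. For the difference between hairpins the same gave 4 to 12 on leaving out 1 array, 5 with no filter, 50 with trended and robust variance, 3 with the mean of probe sets, 2 from its own groups alone, 4 at an adjusted p under 0.01 and 0 at 1.5-fold, against 1643 genes at an unadjusted p under 0.05.

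Leaving out 1 array gave 456 to 659 for WT over GFP, 550 to 685 for BRD over GFP, 240 to 377 for ATPdead over WT, 251 to 382 for ATPdead over BRD, 3496 to 4093 for the knockdown with GFP and 2776 to 3180 for the knockdown with BRD. In that order of comparisons, an adjusted p under 0.01 gave 334, 387, 180 and 171, then 2208 for the knockdown with BRD, and at least 1.5-fold gave 23, 24, 13, 10, 287 and 184. Their own groups alone gave 117, 112, 23 and 13, then 2043 for the knockdown with BRD. Each probe set on its own gave 1149 for WT, 1255 for BRD, 7173 for the knockdown with GFP and 5860 with BRD. Trended and robust variance gave 702 for ATPdead over WT.

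Replicate numbers did not pair the samples: same-numbered S2sh7 ATPdead and GFP arrays had correlations of their deviations of -0.24, -0.02 and 0.00042. A replicate block gave 91 calls (50 higher, 41 lower) for S2sh7, 20 for shLuc and 5 between hairpins, and 691 for WT over GFP, 726 for BRD over GFP, 388 for ATPdead over WT, 380 for ATPdead over BRD, 4260 for the knockdown with GFP and 3385 with BRD.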

Other observations

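Called genes outside the naming rule are given here after their values were seen. With S2sh7, TFPI2, a secreted inhibitor of serine proteases, was lower with ATPdead than with GFP (log2 fold change -0.31, limma adjusted p = 0.000184), as were the homeobox gene HOXC8 (-0.38, adjusted p = 0.0138), the nucleosome remodeller CHD4 (-0.25, adjusted p = 0.00884), the neurosecretory protein VGF (-0.23, adjusted p = 0.0196) and the neurotrophin BDNF (-0.23, adjusted p = 0.0480). The membrane proteoglycan SDC4 was higher (0.20, adjusted p = 0.00260), as were the tetraspanin CD9 (0.15, adjusted p = 0.0108), the caveola protein CAVIN1 (0.14, adjusted p = 0.0235), the calcium-binding protein S100A2 (0.29, adjusted p = 0.0291), the vesicle fusion protein STX1A (0.23, adjusted p = 0.0115) and PAM, which amidates neuropeptides (0.14, adjusted p = 0.0223).

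With the luciferase hairpin, ATPdead was set against GFP in cells that keep their own SMARCA2. The linker histone gene H1-4 was lower there (-0.59, limma adjusted p = 0.0387) and had -0.42 with S2sh7 (adjusted p = 0.0693). FN1, the matrix protein fibronectin, was higher there (0.28, adjusted p = 0.0225) and had 0.16 with S2sh7 (adjusted p = 0.129).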
